A study of Mus musculus with 2 samples.

Results

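Cyclic AMP signalling through protein kinase A (PKA), which holds mouse oocytes in meiotic arrest, was followed through 9 genes chosen by name: Gpr3, Gnas, Adcy3, Pde3a, Prkaca, Prkacb, Prkar1a, Prkar2a and Prkar2b. All 9 were found by Ensembl ID among the 36227 genes of the deposited table and all 9 had a mean of at least 20 counts over the libraries, a floor that 10211 genes passed. RNA came from naturally ovulated oocytes of ICR mice at MII, metaphase of the second meiotic division. The aged pool was made from females of 12 months and the young pool from females of 3 months, each a single library of 18 oocytes lysed together, 3 from each of 6 females. The aged pool held 18597656 counts and the young pool 19475110, so a gene without a count could still have had up to 0.161 CPM in the aged pool and 0.154 CPM in the young one, CPM being a count scaled by the total of its library. With 1 library per age there is no replicate and no test, and every interval below is a 95% interval that covers counting error only.

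The oocyte of an ovarian follicle is kept in prophase by cyclic AMP. The receptor GPR3 is active without an added ligand and, through the stimulatory G protein encoded by Gnas, switches on adenylyl cyclase, of which ADCY3 is the form described in mouse oocytes. The phosphodiesterase PDE3A breaks cyclic AMP down, and is itself held in check by cyclic GMP that enters from the surrounding cumulus cells. Cyclic AMP binds the regulatory subunits of PKA and frees its catalytic subunits, which act on CDC25B and WEE2 so that CDK1 stays inactive. When cyclic AMP falls, meiosis resumes. The oocytes measured here had already passed that point and stood at the later MII arrest.

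Both libraries were primed with oligo(dT), so the transcript ends that carry the poly(A) tail are shown for 4 of the genes the results turn on. Each is the last 30 bases of the longest protein-coding transcript of GENCODE mouse release 21 (build GRCm38), at the 3′ end of the last exon, 5′ to 3′ on the strand of the gene, with the poly(A) signals AATAAA and ATTAAA in capitals.
Gpr3, chr4:133209340-133209369, minus strand: actcAATAAAaaaaaaatggtttttttgga
Adcy3, chr12:4213496-4213525, plus strand: ctgttttATTAAAagctttactcaacttga
Prkaca, chr8:83996414-83996443, plus strand: attaccAATAAAgttttgttttaaAATAAA
Prkacb, chr3:146729574-146729603, minus strand: gcaaaATTAAAgtatcttcaaaggataaaa

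One of these signals lay in the last 30 bases of 8 of the 9 members, Pde3a being the exception, and of 70.5% of 9231 coding genes above the floor. The cytoplasmic polyadenylation motifs TTTTAT and TTTTAA, read on the sense strand only, were present in the last 100 bases of 5 members (Adcy3, Prkaca, Prkacb, Prkar2a and Prkar2b) and of 31.6% of those coding genes. TTTTAT shares its last bases with ATTAAA in Adcy3. These are matches of letters at annotated ends, and which ends the oocytes used was not analysed here.

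Between the ages, Prkaca was the member furthest below equality in the aged pool, while Adcy3 and Pde3a lay above it. Of the 9 members, 2 (Adcy3 and Pde3a) were higher in the aged pool by 2-fold or more, as were 27.9% of all genes that passed the floor. A single member, Prkaca, was lower by 2-fold or more, as were 10.6% of all genes. When the counting interval also had to lie beyond 2-fold, 1 member was higher (Pde3a; 18.0% of all genes) and 1 lower (Prkaca; 6.35%). The median log2 ratio of the members, aged over young, was 0.50, beside 0.43 over all genes tested. Because the median of all genes was not at 0, ratios of the members are also given relative to the median gene, that is 0.43 lower. Against the median gene 2 members lay above by 2-fold or more and 2 below, Gpr3 and Prkaca, beside 16.0% and 17.3% of all genes. The counts stayed at 2 higher and 1 lower with trimmed mean of M-values (TMM) scaling (17.2% and 16.3% of all genes), with library totals taken without the 100 most abundant genes (19.5% and 14.6%), with 5 counts added to each value (26.5% and 9.76%) and with no floor (29.9% and 15.7%). With a floor of 100 counts Adcy3 was left out, which gave 1 higher and 1 lower of 8 members (25.7% and 7.39%).

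**Figure D1:**
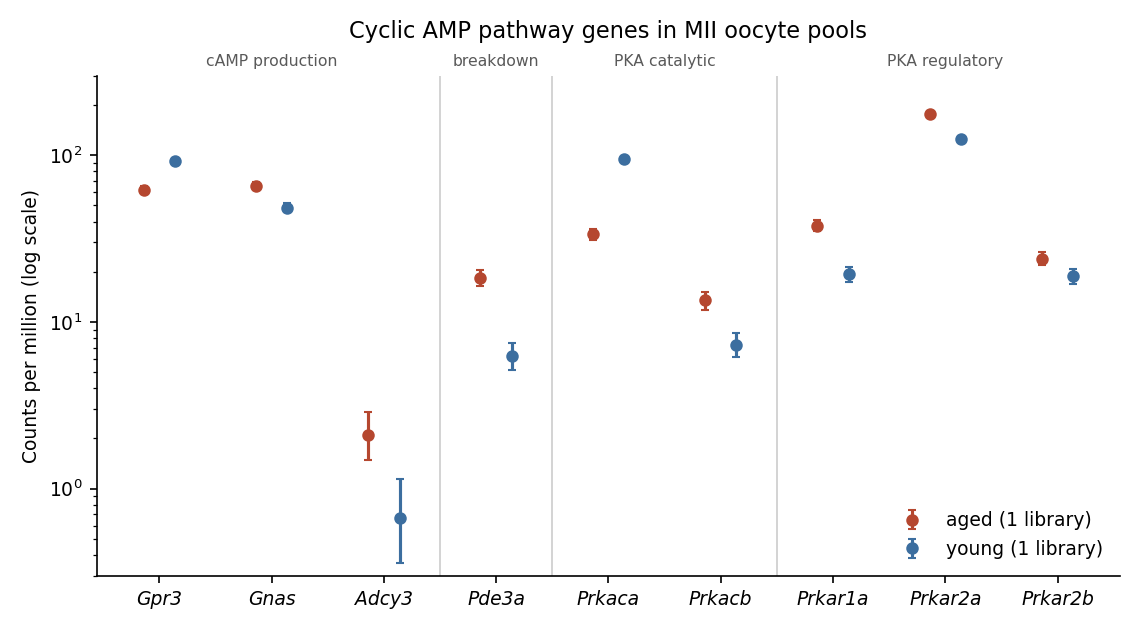
Level of each gene in the aged (left point) and young (right point) pool in CPM on a log axis, ordered by role, with bars for the 95% Poisson counting interval of 1 library each. Prkaca and Gpr3 are lower in the aged pool, the other 7 genes are higher, and Adcy3 has the lowest level in both.

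Gpr3 (ENSMUSG00000049649, chromosome 4), the receptor that starts the pathway, had 1147 counts (61.7 CPM, 58.2 to 65.3) in the aged pool and 1798 counts (92.3 CPM, 88.1 to 96.7) in the young one. It was 1.50-fold lower in the aged pool (interval 1.39 to 1.61), a log2 ratio of −0.58, and 82.9% of all genes had a higher ratio. Relative to the median gene the value was −1.01, just past 2-fold.

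Gnas (ENSMUSG00000027523, chromosome 2), which encodes the stimulatory G protein alpha subunit, had 1223 counts (65.8 CPM, 62.1 to 69.6) in the aged pool and 946 counts (48.6 CPM, 45.5 to 51.8) in the young one. Its log2 ratio of 0.44 (0.31 to 0.56) was nearly that of the median gene, at 0.01 relative to it. Gnas is an imprinted gene with several promoters and protein products, and the count per gene does not separate them.

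Adcy3 (ENSMUSG00000020654, chromosome 12), the only cyclase among the members, was the scarcest member, with 39 counts in the aged pool and 13 in the young one. Its level was 2.10 CPM (1.49 to 2.87) in the aged pool and 0.668 CPM (0.355 to 1.14) in the young one. It was 3.14-fold higher in the aged pool, but the interval of that ratio ran from 1.64-fold to 6.41-fold, the widest among the members. Relative to the median gene it was 2.34-fold higher. Its longest transcript also overlaps Cenpo, a kinetochore gene on the opposite strand. Of the runs of 30 bases in that Adcy3 transcript, 25.8% also occur in Cenpo transcripts, and the use of strand in counting was not given in the sources used here. Cenpo itself had 2180 counts in the aged pool and 1365 in the young one, a log2 ratio of 0.74, and its part in the Adcy3 counts was not tested.

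Pde3a (ENSMUSG00000041741, chromosome 6), the phosphodiesterase that opposes the cyclase, had 341 counts (18.3 CPM, 16.4 to 20.4) in the aged pool and 121 counts (6.21 CPM, 5.16 to 7.42) in the young one. It was 2.95-fold higher in the aged pool (2.39 to 3.66), with a log2 ratio of 1.56, or 1.14 relative to the median gene, and 13.3% of all genes had a higher ratio. Of its transcript, 6.41% of the runs of 30 bases occur in transcripts of other genes, nearly all in Gm28523 on the opposite strand, for which the table has no count. The quotient of Gpr3 to Pde3a counts was 3.36 in the aged pool and 14.9 in the young one, 4.42-fold lower in the aged pool (3.53 to 5.55). This pairing of a lower with a higher member was not among the planned quotients, and its size follows from the ratios given above. Such a quotient cancels the library totals but not transcript composition, and with the median ratio of genes of like length and GC content taken from each gene, a correction added after the data were seen, it was 2.13-fold lower.

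The catalytic subunits, the part of PKA that phosphorylates its targets, differed in opposite directions. Prkaca (ENSMUSG00000005469, chromosome 8) had 623 counts (33.5 CPM, 30.9 to 36.2) in the aged pool and 1854 counts (95.2 CPM, 90.9 to 99.6) in the young one. It was 2.84-fold lower in the aged pool (2.59 to 3.12), a log2 ratio of −1.51, or −1.93 against the median gene, and 93.9% of all genes had a higher ratio. Prkacb (ENSMUSG00000005034, chromosome 3), the closely related second catalytic gene, had 250 counts (13.4 CPM, 11.8 to 15.2) in the aged pool and 142 counts (7.29 CPM, 6.14 to 8.59) in the young one. That was 1.84-fold higher in the aged pool (1.49 to 2.28), or 0.46 on the log2 scale relative to the median gene.

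Prkaca thus made up 71.4% of catalytic counts in the aged pool (exact Clopper-Pearson interval 68.2% to 74.3%) and 92.9% in the young one (91.7% to 94.0%). The quotient of Prkaca to Prkacb was 2.49 in the aged pool and 13.1 in the young one, 5.24-fold lower in the aged pool (4.16 to 6.61), and 3.06-fold lower with the same correction for length and GC content. With counts divided by transcript length, Prkaca made up 82.6% in the aged pool and 96.1% in the young one. Few stretches of sequence are shared with other genes: 3.56% of the runs of 30 bases of Prkaca and 0.139% of those of Prkacb occur in other genes, for Prkaca mostly in the pseudogene Prkaca-ps1, which has no count in the table.

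**Figure D2:**
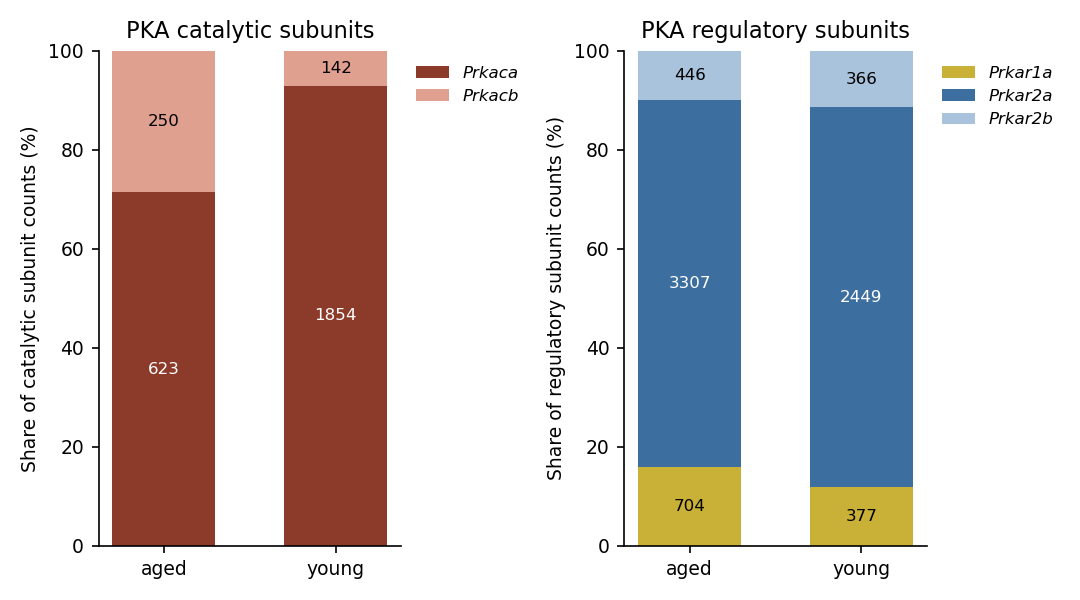
Share of each gene among the counts of the PKA catalytic (left panel) and regulatory (right panel) subunits in percent, with the aged pool left of the young one and the count printed in each bar. Prkaca fills 71.4% of the aged and 92.9% of the young catalytic counts, while Prkar2a fills 74.2% of the aged and 76.7% of the young regulatory counts.

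The regulatory subunits keep the catalytic subunits inactive until cyclic AMP binds. Prkar2a (ENSMUSG00000032601, chromosome 9), the type II alpha subunit and the most counted member, had 3307 counts (178 CPM, 172 to 184) in the aged pool and 2449 counts (126 CPM, 121 to 131) in the young one. Its log2 ratio of 0.50 was 0.07 relative to the median gene. Prkar2b (ENSMUSG00000002997, chromosome 12), the type II beta subunit, had 446 counts (24.0 CPM, 21.8 to 26.3) in the aged pool and 366 counts (18.8 CPM, 16.9 to 20.8) in the young one, a log2 ratio of 0.35, or −0.07 relative to the median gene. Relative to the median gene Prkar2a was thus 1.05-fold higher and Prkar2b 1.05-fold lower. The direction of both depended on the processing: Prkar2b also fell below 0 with TMM scaling, at −0.02, and both did with the correction for length and GC content below.

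Prkar1a (ENSMUSG00000020612, chromosome 11), the type I alpha subunit, had 704 counts (37.9 CPM, 35.1 to 40.8) in the aged pool and 377 counts (19.4 CPM, 17.5 to 21.4) in the young one. It was 1.96-fold higher in the aged pool (1.72 to 2.22), just short of 2-fold, and 0.54 on the log2 scale relative to the median gene. Its share of regulatory counts was 15.8% in the aged pool (14.7% to 16.9%) and 11.8% in the young one (10.7% to 13.0%). Against the summed type II genes the quotient of Prkar1a was 1.40-fold higher in the aged pool (1.22 to 1.61), and 1.26-fold higher with the correction for length and GC content.

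Set against each other, 873 catalytic and 4457 regulatory counts were recorded in the aged pool and 1996 and 3192 in the young one. The quotient of catalytic to regulatory counts was 0.196 in the aged pool and 0.625 in the young one, 3.19-fold lower in the aged pool (2.91 to 3.50). The direction of that difference depended on Prkaca, and the higher regulatory counts of the aged pool also entered its size. With Prkacb as the sole catalytic gene the quotient was 0.0561 in the aged pool and 0.0445 in the young one, 1.26-fold higher in the aged pool (1.02 to 1.57). The quotient without Prkaca was also not a planned one, and it follows from the ratios given above. With counts divided by transcript length the catalytic to regulatory quotient was 0.332 in the aged pool and 1.20 in the young one, and with the correction for length and GC content it was 2.04-fold lower in the aged pool. Transcript counts say nothing of protein, and in a pool of oocytes fewer cells with a transcript and less of it per cell cannot be told apart.

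Levels of different genes were compared as CPM per kilobase of the longest annotated transcript. In the aged pool the order was Prkar2a (35.8), Gpr3 (24.5), Gnas (16.7), Prkaca (14.7), Prkar1a (10.8), Prkar2b (7.10), Prkacb (3.09), Pde3a (1.49) and Adcy3 (0.423), and of neighbours in this order the counting intervals overlapped for Gnas and Prkaca alone. In the young pool it was Prkaca (41.8), Gpr3 (36.7), Prkar2a (25.3), Gnas (12.3), Prkar2b (5.56), Prkar1a (5.51), Prkacb (1.68), Pde3a (0.505) and Adcy3 (0.135), with overlapping intervals for Prkar2b and Prkar1a alone. By this measure Prkaca stood below Prkar2a, Gpr3 and Gnas in the aged pool and above all other members in the young one. Prkacb, Pde3a and Adcy3 closed the order in both. In CPM without division by length Prkar2a led in both pools, at 126 in the young one beside 95.2 for Prkaca. Both libraries were primed with oligo(dT), and whether counts rose with transcript length was not tested. The annotated Pde3a transcript has 12302 bases, against 2276 to 4965 for the other 8, so its place in the order depends on that length.

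**Figure D3:**
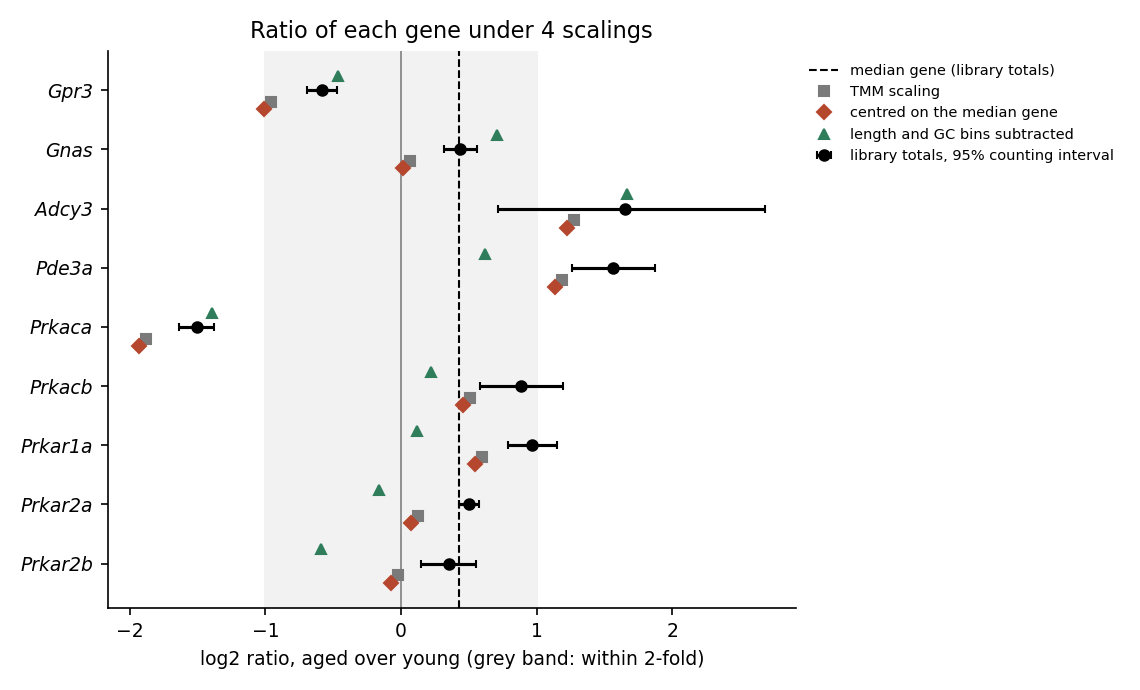
Log2 ratio of aged over young per gene with library totals (black, 95% counting interval), TMM scaling, centring on the median gene, and after subtraction of the median of genes of like length and GC content. Prkaca lies beyond 2-fold below equality under all 4, and Pde3a falls to 0.62 with length and GC content taken into account.

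The ratio also went with the base composition of transcripts across all genes, and the members spanned much of that range. In GC decile 2 of the tested genes (41.8% to 44.2% GC) the median log2 ratio was 0.87, and in decile 10 (57.7% to 73.8%) it was −0.28. Pde3a, at 43.0% GC, had a log2 ratio of 0.62 once the median of its bin of transcript length and GC content, 0.94, was subtracted, which is short of 2-fold. Prkaca, at 54.9%, and Gpr3, at 53.9%, fell in the same bin with a median of −0.11, and their corrected log2 ratios were −1.39 and −0.47. Adcy3 (57.0%) and Gnas (57.8%) lay above genes of like composition, with corrected values of 1.67 and 0.71. Prkacb and Prkar1a came to 0.22 and 0.12, Prkar2a to −0.16 and Prkar2b to −0.59. After this correction 1 member, Adcy3, was higher by 2-fold or more (13.6% of 9902 genes) and 1, Prkaca, lower (14.9%).

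**Figure D4:**
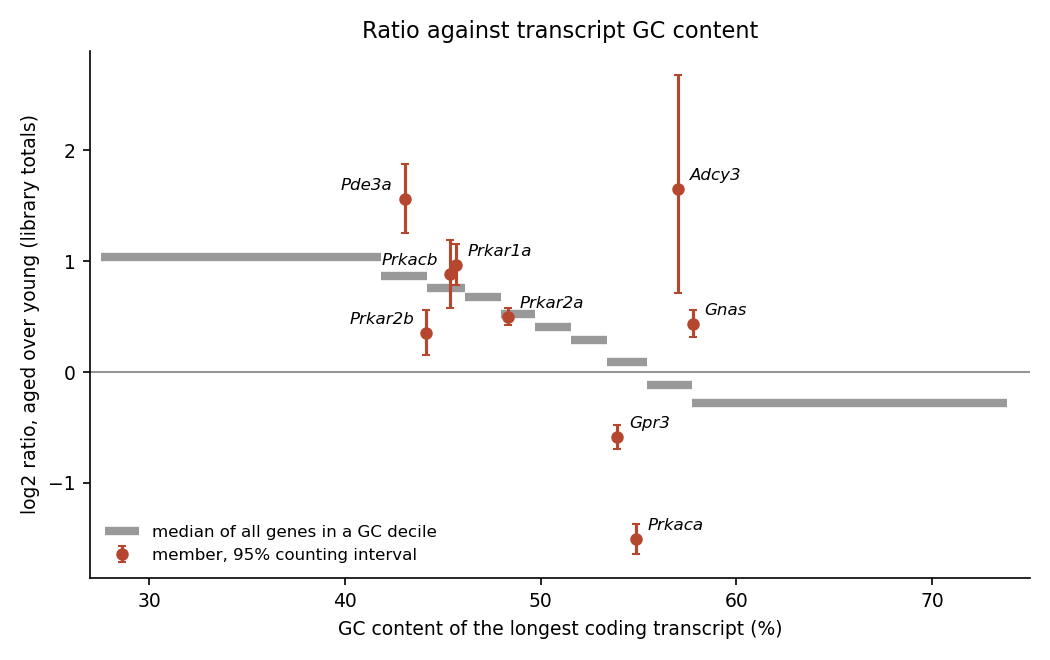
Log2 ratio of aged over young against the GC content of the longest coding transcript, for the members (red, 95% counting interval) and as the median of all tested genes in each GC decile (grey). The grey steps run from 1.04 at low GC content to −0.28 at high GC content; Prkaca lies furthest below them and Adcy3 furthest above.

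Around the members, 71 other genes of the pathway in 7 lists passed the floor. Of these 21 were higher by 2-fold or more in the aged pool and 6 lower (27.9% and 10.6% of all genes). Their median log2 ratio was 0.59, beside 0.43 over all genes. Relative to the median gene the counts were 11 and 10 (16.0% and 17.3%), which is near the shares of all genes. With the correction for length and GC content they were 10 and 7 (13.6% and 14.9%). Folds of single related genes below are given without that correction.

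Among signalling components above the cyclase, 2 of 17 genes were 2-fold or more higher in the aged pool and 2 lower (27.9% and 10.6% of all genes). Against the median gene 1 was higher and 4 were lower (16.0% and 17.3%), and the list's median of 0.11 became −0.32. Gpr12, a receptor related to Gpr3, had 44 counts in the aged pool and 43 in the young one. Arrb2, a beta-arrestin that desensitises receptors, was 3.52-fold lower in the aged pool (60 aged and 221 young counts), and Gng5, a G protein gamma subunit, 2.88-fold lower (666 aged and 2010 young counts). Ric8b, a chaperone of stimulatory alpha subunits, was 3.68-fold higher (95 aged and 27 young counts). Gnai1, an inhibitory alpha subunit, was 1.55-fold lower (179 aged and 291 young counts), or −1.06 on the log2 scale relative to the median gene.

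Of 6 other adenylyl cyclase genes above the floor 2 were 2-fold or more higher in the aged pool and none lower (27.9% and 10.6% of all genes). The counts were the same against the median gene (16.0% and 17.3%). Adcy9 had 1273 counts in the aged pool and 416 in the young one (3.20-fold higher, 2.87 to 3.59). Adcy2 had 685 aged and 193 young counts (3.72-fold higher, 3.16 to 4.38). Adcy9 and Adcy2 each had more counts than the member Adcy3 in both pools. Adcy6 (34 aged and 37 young counts) and Adcy10, the soluble cyclase (28 aged and 32 young counts), had log2 ratios of −0.06 and −0.13.

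Of 7 other genes with a phosphodiesterase symbol above the floor, Pde6d included, 1 was 2-fold or more higher in the aged pool and 1 lower (27.9% and 10.6% of all genes). The counts were the same against the median gene (16.0% and 17.3%). Both genes were of the calcium-regulated Pde1 family. Pde1c was 6.72-fold higher (77 aged and 12 young counts) and Pde1b 8.15-fold lower (17 aged and 145 young counts). Pde3b, the other gene of the Pde3 family, had 267 counts in the aged pool and 185 in the young one, a log2 ratio of 0.60 where that of Pde3a was 1.56. Pde4d, a cyclic AMP-specific enzyme, also had 0.60 (52 aged and 36 young counts).

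Prkar1b, the remaining regulatory subunit gene, and Pkia, a PKA inhibitor, had no count in the table. Pkib, another inhibitor gene, had 72 counts in the aged pool and 28 in the young one and was 2.69-fold higher, or 2.00-fold relative to the median gene. Pkig had 407 aged and 337 young counts and a log2 ratio of 0.34. With the correction for length and GC content, 0 of these 2 inhibitor genes were 2-fold or more higher (13.6% of all genes).

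A-kinase anchoring proteins, which tether PKA to places in the cell, had 7 of 15 genes 2-fold or more higher in the aged pool and 1 lower, beside 27.9% and 10.6% of all genes. Their median log2 ratio was 0.89. Against the median gene 1 of the 15 was higher and 1 lower, beside 16.0% and 17.3% of all genes. Akap2 was 3.94-fold higher (1778 aged and 472 young counts), Rab32, a small GTPase that anchors PKA at mitochondria, 2.32-fold higher (184 aged and 83 young counts) and Akap6 2.23-fold higher (34 aged and 16 young counts). Relative to the median gene Rab32 was 1.73-fold and Akap6 1.66-fold higher, both short of 2-fold. Ezr, which encodes the membrane linker ezrin, was 9.17-fold lower (5 aged and 48 young counts).

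Of 18 genes for the targets of PKA in arrest and for other effectors of cyclic AMP, 5 were 2-fold or more higher in the aged pool and 1 lower (27.9% and 10.6% of all genes). Against the median gene 4 were higher and 3 lower (16.0% and 17.3%). With the correction for length and GC content 3 were higher and 1 lower (13.6% and 14.9%). Cdc25b, the phosphatase that PKA restrains, had 884 counts in the aged pool and 1156 in the young one, a log2 ratio of −0.32. Wee2, the oocyte kinase that PKA activates, was 2.46-fold higher (12475 aged and 5314 young counts), or 1.83-fold relative to the median gene, and Cdk1, on which both act, was 6.79-fold lower (18 aged and 128 young counts). The cyclic AMP response transcription factors Crem (57 aged and 15 young counts) and Atf1 (317 aged and 99 young counts) were 3.98-fold and 3.35-fold higher, and Mastl, a kinase of meiotic resumption, 3.29-fold higher.

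The list for cyclic GMP and gap junctions had 6 genes above the floor, of which 3 were 2-fold or more higher in the aged pool and 1 lower (27.9% and 10.6% of all genes). Against the median gene 1 was higher and 1 lower (16.0% and 17.3%). Abcc4, an exporter of cyclic nucleotides, was 3.77-fold higher (608 aged and 169 young counts). The cyclic GMP-dependent kinase genes Prkg1 (99 aged and 43 young counts) and Prkg2 (129 aged and 63 young counts) were 2.41-fold and 2.14-fold higher, but 1.80-fold and 1.60-fold relative to the median gene. Impdh1, an enzyme of guanine nucleotide synthesis, was 2.56-fold lower (28 aged and 75 young counts).

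**Figure D5:**
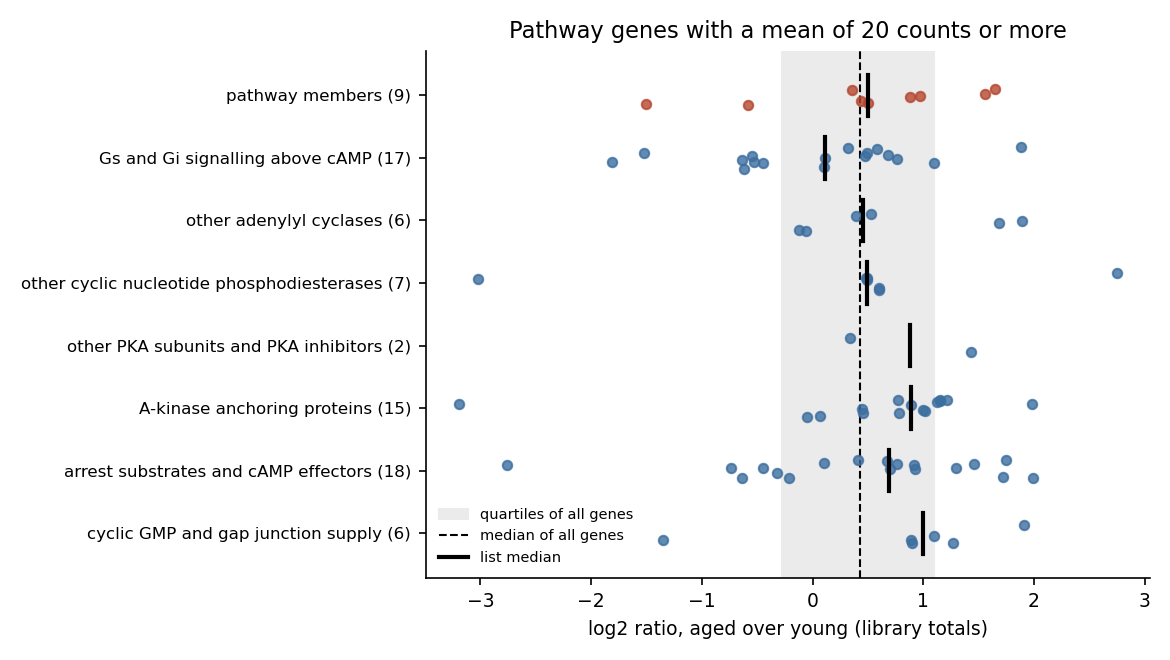
Log2 ratio of aged over young for every gene above the floor in the member set (red) and in 7 lists of related genes (blue), with the number of genes in brackets. Short bars are list medians, and the dashed line and grey band are the median and quartiles of all genes. The medians lie between 0.11 for the genes above the cyclase and 1.00 for the cyclic GMP list.

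All 12 oocyte markers were counted in both libraries and together made up 96863 CPM in the aged pool and 177119 CPM in the young one. Most of that was Gdf9 and H1foo, and the markers did not all differ in the same direction. In the aged pool 2 of the 12 were higher by 2-fold or more (Dazl 4.37-fold and Nlrp5 2.54-fold). Another 3 were lower (Gdf9, Zp1 and Oosp1), beside 27.9% higher and 10.6% lower of all genes. Their median log2 ratio was −0.50, or −0.93 relative to the median gene. Against the median gene 1 was higher and 4 were lower (16.0% and 17.3%). Of 24 cumulus and granulosa markers 10 were counted in the aged pool and 14 in the young one, at 66.6 CPM in the aged pool and 35.6 CPM in the young one in sum. Most of that was Cyp19a1, and without it the sums were 9.84 CPM in the aged pool and 13.2 CPM in the young one. Amh, Foxl2, Lhcgr, Inhba, Star, Areg, Ereg and Amhr2 had no count in either library. Npr2, the cumulus receptor that makes cyclic GMP, had 1 count in the aged pool and 4 in the young one, Gja1 had 0 aged and 11 young counts, and Vim 0 aged and 51 young counts. Others went the other way: Nr5a2 had 106 aged and 38 young counts and Fshr 16 aged and 0 young counts. Of the 4 markers of this list above the floor, 2 were higher by 2-fold or more and 1 lower (27.9% and 10.6% of all genes). Against the median gene 1 was higher and 2 were lower (16.0% and 17.3%). Of 7 blood and immune markers 3 were counted in each library, at 43.5 CPM in the aged pool and 23.9 CPM in the young one, mostly from Pecam1 (723 aged and 381 young counts). Whether other cells contributed to the members' values was not tested.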

How the data were processed

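RNA of 1 library per age was sequenced on a SOLiD instrument after oligo(dT) priming and 18 and then 14 cycles of PCR, per the labels' protocols. The counts per gene deposited by the authors are unnormalized whole numbers, tested as such on the file. The build was mm9 per the submitters' processing notes. What aligned and counted the reads, with what use of strand and of reads with several matches, was not given in the sources used here. The protocols describe no molecular identifiers, so reads may repeat the same molecule.

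Symbols, transcript length and GC content came from GENCODE mouse release 21 (GRCm38), which gave a symbol to 93.7% of the counted genes and length and GC content to 97.0% of those above the floor. Counts were scaled to library totals and ratios taken as log2, aged over young, with 3 counts set for a count of 0. Intervals of ratios are exact (Clopper-Pearson), those of levels Poisson and those of quotients exact conditional odds ratios. With 1 library per age there was no test, and differences were read against 2-fold. The alternatives were TMM scaling, centring on the median gene, totals without the 100 most abundant genes, bins of length and GC content (10 by 10), 5 added counts and other floors. The intervals were checked on simulated independent Poisson counts, the model that they assume. That check therefore does not cover reads that repeat a molecule or spread between libraries. The members and lists were chosen with earlier results of these data known. From each list up to 4 genes furthest from the median gene are named, beside Prkar1b, Pkia, Pkib, Pkig, Gpr12, Cdc25b, Wee2 and Cdk1 whatever their values. Single marker genes and Cenpo were named after their values were seen. Python 3.11.15, numpy 2.4.6, scipy 1.17.1, pandas 2.3.3, matplotlib 3.10.9 and, for TMM factors alone, edgeR 4.0.16 in R 4.3.3 were used.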

Additional observations from a re-analysis of the deposited data

How the results depend on the processing

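The ratios of Prkaca and Gpr3 stayed below 0, and those of Gnas, Adcy3, Pde3a, Prkacb and Prkar1a above 0, under all 5 alternatives. Gnas did so only narrowly, at 0.01 with centring and 0.06 with TMM. Prkar2a changed sign under 1 and Prkar2b under 3. Centring on the median gene put 2 members at least 2-fold lower in place of 1 (17.3% of all genes in place of 10.6%). Bins of length and GC content left 1 at least 2-fold higher in place of 2 (13.6% of all genes in place of 27.9%). The members' median of 0.50 became 0.13 with TMM, 0.074 with centring, 0.21 without the 100 most abundant genes and 0.12 with the bins. Of the 71 related genes, 21 were at least 2-fold higher (27.9% of all genes). That became 11 with TMM (17.2%), 11 with centring (16.0%), 12 without the abundant genes (19.5%) and 10 with the bins (13.6%). It became 11 where the interval also lay beyond 2-fold (18.0%), and 11 of 42 genes with a floor of 100 counts (25.7%). The 6 lower (10.6%) became 10 with centring (17.3%), 16 of 90 genes with no floor (15.7%) and 2 of 42 with a floor of 100 counts (7.39%). The log2 quotient of catalytic to regulatory counts of −1.67 became −1.85 per kilobase. With the bins, added for the quotients after the data were seen, it became −1.03, that of Prkaca to Prkacb −1.61 in place of −2.39 and that of Gpr3 to Pde3a −1.09 in place of −2.14. The quotient of Gpr3 to Pde3a and that of Prkacb alone to the regulatory genes were themselves not planned. Rescaling moves all genes together and other floors change how many genes enter. No paired analysis was possible because there is 1 library per age. The precision of Adcy3 is limited by its 39 aged and 13 young counts, and the part of Cenpo reads in them was not tested.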

Other observations

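Some related genes below the floor of a mean of 20 counts also lay apart between the libraries, and they were chosen after their values were seen. Crtc2, a coactivator of cyclic AMP response transcription, had 0 counts in the aged pool and 31 in the young one. With 3 counts set for the 0 it was 9.87-fold lower in the aged pool. The near end of the counting interval lay at 7.56-fold. Arrb1, the other beta-arrestin, had 2 counts in the aged pool and 22 in the young one, a log2 ratio of −3.39 (−6.53 to −1.37). Pde4b, a cyclic AMP-specific phosphodiesterase, had 2 aged and 18 young counts, a log2 ratio of −3.10 (−6.26 to −1.04). Grk6, a receptor kinase, had 12 counts in the aged pool and 1 in the young one, a log2 ratio of 3.65 (0.89 to 9.07).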
